A study of Mus musculus with 88 samples.

Results

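The ribosomal protein genes described here are the genes for the proteins of the cytoplasmic ribosome, measured in whole mouse hearts on 88 Affymetrix arrays. Members were all symbols beginning with Rpl or Rps and a number, together with Rplp0, Rplp1, Rplp2 and Rpsa, wherever the platform annotation gave a probe set that symbol alone. Kinases of the Rps6k family, pseudogenes and paralogs marked as like genes were left out. The rule found 31 genes among the 8252 symbols on the array, 16 of the small subunit and 15 of the large subunit. Rplp1 and Rplp2 had no probe set of their own under this rule, and 38 further probe sets carried a ribosomal protein symbol only together with others and were not used. Of the 31 genes, 25 passed the filter on low signal, which kept the upper 60% of probe sets by mean. The other 6 had dim probe sets and were not tested. Their mean signals over the arrays were 26.4 for Rpl35a, 23.5 for Rps14, 18.9 for Rpl38, 16.5 for Rpl39, 14.4 for Rps20 and 5.26 for Rps15, which lay at the floor of 4.22 on 55 arrays. Just inside the filter were Rpl32 and Rps13, with mean signals of 38.6 and 43.7.

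The hearts came from mice that all lacked apoE. The dKO mice had the genotype SR-BI-/- apoE-/-, and the HET mice, which served as controls, were SR-BI+/- apoE-/-. SR-BI is the HDL receptor encoded by Scarb1. On chow there were 9, 10 and 9 HET hearts and 10, 10 and 12 dKO hearts at ages of 21, 31 and 43 days. Probucol, an antioxidant that lowers blood lipids, was given in the diet to 3, 3 and 2 HET mice and 6, 8 and 6 dKO mice of those ages. Each array held the RNA of 1 mouse. By the series' own account, dKO mice on chow have no detectable coronary disease at 21 days, small infarcts and heart failure at 31 days, and extensive infarction with severe failure at 43 days, and the HET controls show no such signs. The log2 difference of Scarb1, dKO minus HET on chow, was -1.36, -1.07 and -1.04 at the successive ages.

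A ribosome joins a small subunit, which reads the mRNA, to a large subunit, which forms the peptide bonds, and each holds one copy of most of its proteins. The P stalk of the large subunit, built on Rplp0, recruits the elongation factors. Ribosomal protein mRNAs are among the most abundant of any cell, and in mammals they begin with a run of pyrimidines, the TOP sequence, through which the mTOR pathway and the RNA-binding protein Larp1 control their translation. In the heart, ribosome content is known to grow with hypertrophy.

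The start of the gene is shown for 6 members on which the results below turn: 4 that were higher in dKO hearts at 43 days, 1 that was lower, and Rpl7a, which has the longest pyrimidine run and was lower relative to the other members. The sequences are from RefSeq on the build GRCm38.p6, and each runs from 40 bases before to 30 bases after an annotated start, 5′ to 3′ on the strand of the gene. Capitals mark the longest run of C and T within 30 bases of that start. Of several annotated starts, the one with the longest run is shown.
Rpl13a, chr7:45128716-45128785, minus strand: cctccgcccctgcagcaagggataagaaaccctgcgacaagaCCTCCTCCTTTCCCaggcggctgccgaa
Rps19, chr7:24884873-24884942, plus strand: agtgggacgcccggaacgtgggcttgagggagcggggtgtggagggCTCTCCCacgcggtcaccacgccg
Rps3, chr7:99483680-99483749, minus strand: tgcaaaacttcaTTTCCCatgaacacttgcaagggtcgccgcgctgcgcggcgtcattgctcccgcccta
Rplp0, chr5:115559427-115559496, plus strand: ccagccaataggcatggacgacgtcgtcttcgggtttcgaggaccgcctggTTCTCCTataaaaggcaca
Rps13, chr7:116334161-116334230, minus strand: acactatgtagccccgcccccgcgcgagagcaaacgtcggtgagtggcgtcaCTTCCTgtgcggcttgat
Rpl7a, chr2:26910767-26910836, plus strand: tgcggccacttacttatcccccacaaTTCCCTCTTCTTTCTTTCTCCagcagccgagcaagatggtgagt

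The marked run is 14 letters long in Rpl13a and 21 in Rpl7a, against 6 or 7 in the other 4. Relative to the annotated start, it begins at 2 in Rpl13a, 6 in Rps19, 11 in Rplp0 and 12 in Rps13. In Rps3 and Rpl7a it begins before that start, at -28 and -14. The runs were not matched to measured mRNA starts, so their lengths are not those of TOP sequences. In the wider stretch searched next, Rps19 held a run of 11. RefSeq promoters were found for 25 of the 31 members, tested or not. In 17 of these 25 (68%), the stretch from 30 bases before to 50 bases after a start held a run of at least 8 letters of C and T, as did 32.2% of 17492 protein-coding genes. The median longest run was 11 letters in the members and 6 in all genes. Within 300 bases, searched on both strands, CCGGAAG (the core of an ETS factor motif) was present in 10 of the 25 members (40%) and 12.95% of all genes. AAGATGGC (a YY1 motif) was present in 4 members (16%) and 3.57% of all genes, and TATAAA (a core promoter element) in 4 members (16%) and 14.8%. The first motif ends in the 3 letters with which the second begins, so a stretch can hold both. A match here describes letters and is not a measured site.

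Because these genes fill the top of the intensity range, how the arrays are put on one scale bears on every count below. Of the 25 members tested, 19 lay among the brightest 10% of probe sets. Array medians ranged from signals of 27.8 to 75.4 and moved with the groups: on the log2 scale the median array had 5.42 in HET and 5.85 in dKO hearts on chow at 43 days. Values were therefore centred on each array's median, and each result was also computed on 3 other scalings: as deposited, after quantile normalization, and centred on the brightest 10% of probe sets. Between dKO and HET hearts on chow at 43 days the median of all 5684 genes tested was -0.09 after centring, 0.26 as deposited, -0.06 after quantile normalization and 0.11 when centred on the brightest 10%. Within groups, the SD of the members' median level was smaller as deposited than after centring in 10 of 12 groups. A call below is an adjusted p under 0.05 over all genes tested, and a call in all 4 scalings has the same direction in each. Counts at an unadjusted p under 0.05 in the limma fit are given for the members alone. The share of all genes at that threshold is not given, so these counts do not set the members apart.

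At 43 days on chow, 6 of the 25 ribosomal protein genes tested were higher in the failing dKO hearts after centring, and 18 to 20 were on each of the other 3 scalings. Rpl13a was 2.30-fold and Rps19 1.59-fold the HET level, and Rps3, Rpl8, Rpl7 and Rplp0 were higher by 1.18- to 1.36-fold. These 6 were higher in all 4 scalings. Over all genes tested, 19.2% were called higher after centring and 19.1% in all 4 scalings. After centring 3 members were lower, where 27.9% of all genes were, and only Rps13 among them was lower in all 4 scalings, where 11.6% of all genes were. The members' median difference was 0.09, against the -0.09 of all genes.

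Rpl13a encodes a large subunit protein that is also known, in activated monocytes, as part of a complex that represses inflammatory mRNAs. Its log2 level over the array median had a lowest, median and highest value of 0.31, 0.69 and 1.53 in the 9 HET hearts at 43 days and of 1.32, 1.90 and 2.56 in the 12 dKO hearts. The groups overlapped through 1 high HET heart, while the other 8 lay below every dKO heart. The difference was 1.20 ± 0.14 (SE; adjusted p = 5.6e-12), and 1.55 as deposited, 1.24 after quantile normalization and 1.40 on the brightest 10%. In unscaled signal the median heart went from 72.5 to 221. The gene had 1 probe set under the rule, with a mean signal of 107.5, which lay below the brightest 10% of probe sets.

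Rps19, a small subunit protein whose gene is the one most often mutated in Diamond-Blackfan anaemia, ranged from 2.76 to 3.63 in HET hearts with a median of 3.04, and from 3.29 to 4.82 in dKO hearts with a median of 3.81. The groups overlapped, with 8 of the 12 dKO hearts above every HET heart. The difference was 0.67 ± 0.12 (adjusted p = 1.4e-06). Rps7, Rps10 and Rps24 were the other tested members of a partial list of genes mutated in that anaemia. They differed by 0.06, 0.07 and 0.22 after centring and were not called. Members outside that partial list can also be linked to the anaemia.

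The other 4 members called higher moved less. Rps3, a small subunit protein at the entry of the mRNA channel, had lowest, median and highest values of 4.61, 5.37 and 5.78 in HET and of 5.43, 5.70 and 6.02 in dKO hearts, a difference of 0.44 ± 0.12 (adjusted p = 0.0016). Rpl8, a large subunit protein close to the peptidyl transferase centre, had 4.78, 5.24 and 5.52 in HET and 5.26, 5.53 and 5.82 in dKO hearts, a difference of 0.33 ± 0.09 (adjusted p = 0.0022). For both genes the ranges overlapped, with 4 of the 12 dKO hearts above every HET heart for Rps3 and 6 for Rpl8.
Rpl7, a large subunit protein, differed by 0.27 ± 0.09 (adjusted p = 0.014). Rplp0, the base of the P stalk and a widely used reference gene, had 5.76, 6.45 and 6.66 in HET and 6.33, 6.57 and 6.89 in dKO hearts, a difference of 0.24 ± 0.10 (adjusted p = 0.045). The ranges of Rplp0 overlapped, and 4 dKO hearts lay above every HET heart. The difference in Rplp0 was 0.59 as deposited and 0.67 after quantile normalization. Its call was lost under 7 of the 20 alternatives run, among them array weights (0.13, adjusted p = 0.22) and a fit without the filter on low signal (0.24, adjusted p = 0.058).

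**Figure D1:**
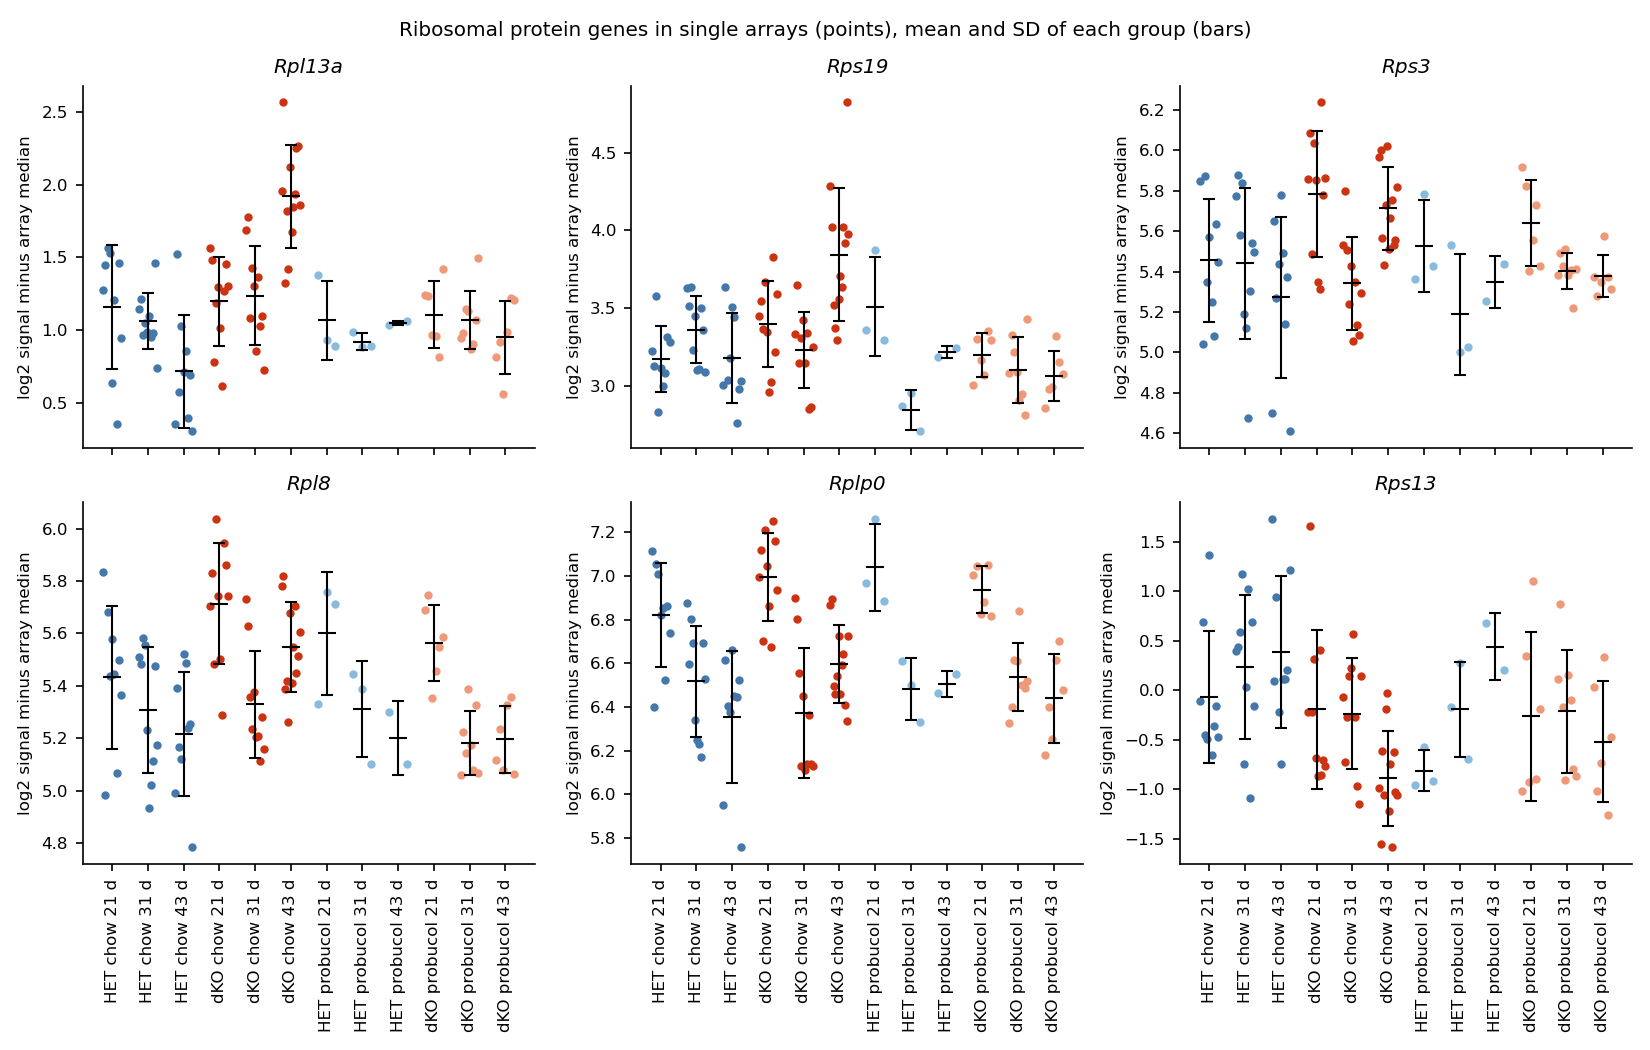
Level of 6 ribosomal protein genes in each of the 88 arrays, as log2 signal minus the array's median (vertical axis, one scale per gene), by group (horizontal axis). Points are single hearts, and bars are the group mean and SD; the dKO chow hearts at 43 days lie between 1.32 and 2.56 for Rpl13a, above all dKO probucol hearts of that age, while for Rps13 they lie lowest by group mean.

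Of the 3 members lower after centring at 43 days, Rps13 and Rpl32 have dim probe sets. Each of these 2 genes had 1 probe set under the rule, with the suffix _r_at. Neither gene could be tested in the alternative that kept only probe sets ending in digits and _at. Rps13, a small subunit protein, ranged from -0.74 to 1.73 in HET hearts with a median of 0.12, and from -1.59 to -0.03 in dKO hearts with a median of -1.01. The groups overlapped, although 8 of the 12 dKO hearts lay below every HET heart. The difference was -1.28 ± 0.29 (adjusted p = 1.3e-04), and -0.93 as deposited. The signal of the median heart was 45.8 in HET and 31.9 in dKO hearts. Rpl32, a large subunit protein measured by a probe set of mean signal 38.6, differed by -0.925 ± 0.36 (adjusted p = 0.028) after centring and was not called as deposited or on the brightest 10%. Rps27, a small subunit zinc finger protein with a mean signal of 238, differed by -0.24 ± 0.10 (adjusted p = 0.032) after centring and by 0.10, without a call, as deposited.

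The remaining 16 members tested at 43 days were not called after centring, with differences from -0.32 for Rpl22 to 0.22 for Rps24. Rpsa, the laminin receptor homologue of the small subunit, differed by 0.07 ± 0.12. For most of them the call depended on the scaling. As deposited 20 members were higher and 1 lower, where 37% and 11.6% of all genes were. After quantile normalization 18 were higher and 2 lower, against 22.6% and 26.8% of all genes, and on the brightest 10% 18 and 1, against 30.2% and 18%. The median of the members was 0.44 as deposited, 0.32 after quantile normalization and 0.29 on the brightest 10%, above that of all genes on each scaling. By subunit, 2 of 13 small and 4 of 12 large subunit members were higher in all 4 scalings, and 1 small subunit member was lower, against 19.1% of all genes higher and 11.6% lower.

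**Figure D2:**
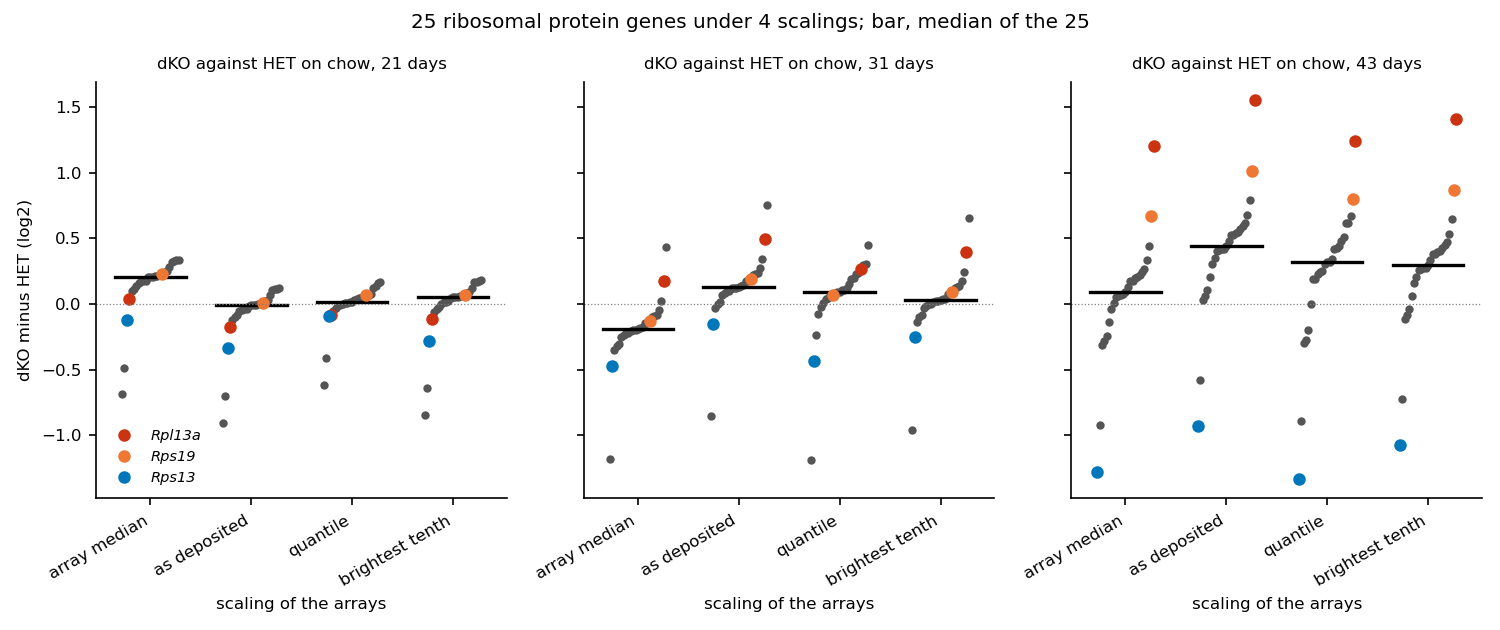
Difference between dKO and HET hearts on chow (log2, vertical axis) of the 25 members tested, each a point, at 3 ages and under 4 scalings of the arrays (horizontal axis); the black bar is the median of the 25. At 43 days the median runs from 0.09 after centring on the array median to 0.44 as deposited, and Rpl13a and Rps19 are the highest points on every scaling.

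Because a common shift of all members cannot be told from the scale of an array, each array was also centred on the median of its 25 members, an alternative added after the data were seen. On this scale 3 members were higher and 7 lower in dKO hearts at 43 days, where 12.4% of all genes were higher and 41.4% lower. Rpl13a was higher by 0.99 (adjusted p = 6.2e-10), Rps19 by 0.45 and Rps3 by 0.23, while Rpl8, Rpl7 and Rplp0 lay within 0.12 of the family and were not called. The members lower than the rest were Rps13, Rpl32, Rpl22, Rps27, Rpl7a, Rps28 and Rpl6, from -1.49 for Rps13 to -0.21 for Rpl6. Rpl7a, Rps28 and Rpl6 are bright members, and their relative differences were -0.36, -0.25 and -0.21.

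**Figure D3:**
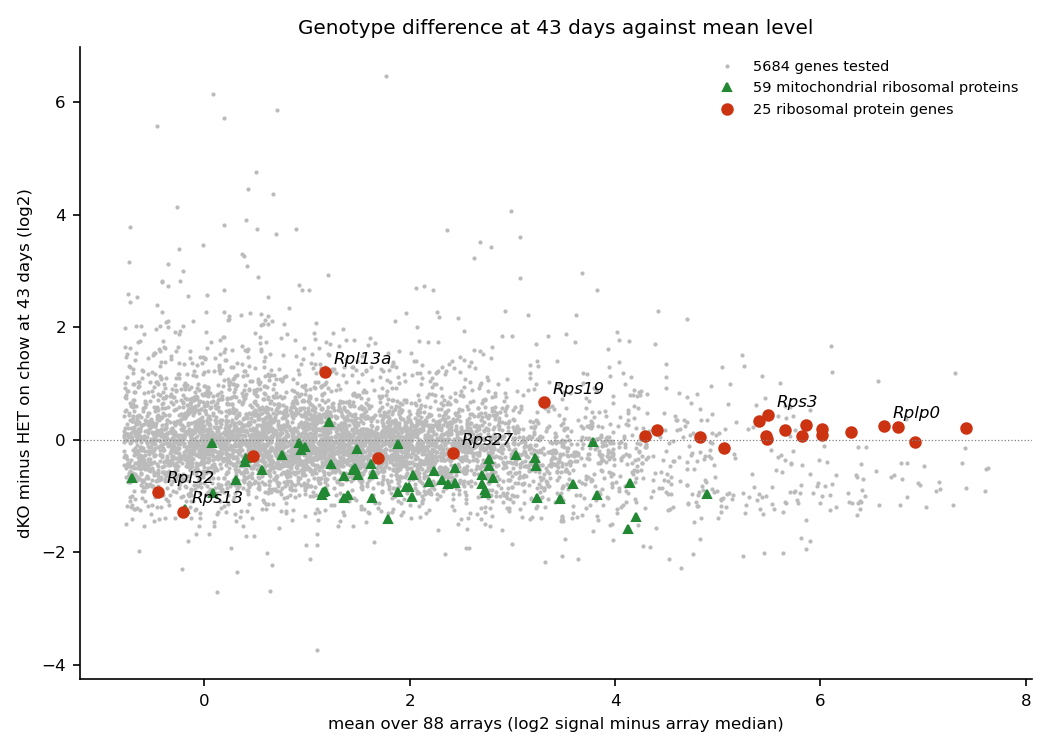
Difference between dKO and HET hearts on chow at 43 days (log2, vertical axis) against the mean level over 88 arrays (log2 signal minus array median, horizontal axis) for 5684 genes, with 25 ribosomal protein genes as circles and 59 mitochondrial ribosomal protein genes as triangles. Most members sit at the bright end close to 0. Rpl13a (1.20), at a lower mean level than most members, and Rps19 (0.67) stand above them, and the dim Rps13 and Rpl32 below.

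Genes with several probe sets did not always give one answer. Rpl10a, the protein of the L1 stalk that guides spent tRNA out, differed by 0.17 ± 0.12 at 43 days by its brighter probe set and by 0.88 ± 0.17 (adjusted p = 1.1e-05) by its second. The 3 probe sets of Rps28 gave -0.04, 0.20 and -0.65, the last from a dim set of mean signal 41.2 (adjusted p = 0.041). Rps4x gave 0.09 by its bright probe set and -1.38 (adjusted p = 0.0030) by a dim one of mean signal 78.1. For Rpl22 the probe sets had opposite signs at 43 days, -0.32 and 0.81, and neither was called. Its second set, of mean signal 57.1, differed by -1.33 at 21 days on chow (limma, adjusted p = 0.038). In the change of the genotype difference from 21 to 43 days that set rose by 2.14 (limma, adjusted p = 0.0018). The second set of Rpl10a rose there by 0.69 (limma, adjusted p = 0.024). The brighter sets of these genes, which stand for them elsewhere, were not called in either comparison.

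At 31 days, when infarcts are small, no member was called in all 4 scalings, in which 7.62% of all genes were higher and 3.8% lower. After centring 0 members were higher and 3 lower in dKO hearts on chow, where 8.25% of all genes were higher and 23% lower. The other scalings gave calls mostly the other way. As deposited 6 members were higher and 0 lower, against 20% and 3.87% of all genes. After quantile normalization 5 were higher and 1 lower, against 11% and 12.8%, and on the brightest 10% 2 and 0, against 16.4% and 8.55%. With array weights 0 were higher and 13 lower, and the share of all genes called in that fit is not given here. After centring, at an unadjusted p under 0.05 in the limma fit, 0 members were higher and 7 lower. The 3 members called lower after centring were Rpl32 at -1.18 ± 0.37 (adjusted p = 0.0098), Rps28 at -0.32 ± 0.12 (adjusted p = 0.040) and Rpl7a at -0.31 ± 0.12 (adjusted p = 0.038). Rps28 and Rpl7a differed by 0.0021 and 0.014 as deposited. The members' median was -0.19 after centring and 0.13 as deposited, so its sign depended on the scaling, and the same held for all genes at -0.14 and 0.18. Rpl13a differed by 0.17 ± 0.14 (adjusted p = 0.36), Rps19 by -0.13 ± 0.12, Rplp0 by -0.15 ± 0.10 and Rpsa by -0.19 ± 0.12.

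At 21 days, before detectable disease, no member was called in limma's fit on any of the 4 scalings, where 4.12% of all genes were called higher and 0.985% lower after centring. Of all genes 0.669% were higher and 1.43% lower as deposited, 1.57% and 0.704% after quantile normalization, and 1.69% and 1.62% on the brightest 10%. At an unadjusted p under 0.05 in the limma fit, 6 members were higher and 1 lower after centring, without the share of all genes at that threshold. The largest difference of any member was a lower level of Rps29, -0.69 ± 0.30, from a probe set of mean signal 69.4. Rpl37a differed by 0.34 ± 0.14 and Rps18 by 0.33 ± 0.12. Rps3 and Rpsa differed by 0.33 ± 0.13 (adjusted p = 0.11) and 0.32 ± 0.12 (adjusted p = 0.11), and as deposited by 0.11 and 0.10. Rpl13a differed by 0.04 ± 0.14, Rps19 by 0.23 ± 0.12 and Rplp0 by 0.18 ± 0.11. The members' median was 0.21 after centring and -0.01 as deposited. It also differed between array sets, as given with those sets.

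The genotype difference itself changed with age for 2 members in all 4 scalings. From 21 to 43 days it rose by 1.16 ± 0.20 for Rpl13a (adjusted p = 2.0e-06) and by 0.44 ± 0.17 for Rps19 (adjusted p = 0.037). Over all genes 9.59% rose after centring and 9.1% in all 4 scalings. After centring it fell for 2 members, where 23.5% of all genes fell: by 1.15 ± 0.42 for Rps13 (adjusted p = 0.024) and by 0.36 ± 0.14 for Rps27 (adjusted p = 0.039). Neither fall was called in all 4 scalings, where 6.02% of all genes fell, and for Rps27 the sign turned, to 0.21 as deposited and 0.0020 on the brightest 10%. As deposited 18 members rose, as did 32.9% of all genes. Within HET hearts on chow, Rpl13a differed by -0.44 ± 0.15 between 43 and 21 days after centring, without a call, and this enters its rise of 1.16. The rise of Rps19 lost its call under 6 of the 20 alternatives, among them array weights (0.44, adjusted p = 0.052) and a fit of the compared groups alone (0.44, adjusted p = 0.091), while that of Rpl13a was called under all 20.

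Within dKO hearts on chow, successive ages were also compared. From 31 to 43 days 4 members were higher in all 4 scalings, where 7.58% of all genes were higher after centring and 7.53% in all 4 scalings: Rpl13a by 0.68 ± 0.13 (adjusted p = 6.1e-05), Rps19 by 0.61 ± 0.11 (adjusted p = 2.4e-05), Rps3 by 0.37 ± 0.12 and Rpl7 by 0.25 ± 0.09. No member was called lower after centring, where 12.1% of all genes were, and 1 was lower at an unadjusted p under 0.05 in the limma fit. From 21 to 31 days Rpl13a differed by 0.04 ± 0.14 and Rps19 by -0.17 ± 0.12 after centring, without a call. As deposited Rpl13a rose by 0.69 over that interval and by 0.88 from 31 to 43 days, and Rps19 by 0.48 and 0.81. The intervals were not compared by a test. From 21 to 31 days the sign of most members depended on the scaling. After centring 16 members were lower, with Rplp0 at -0.62 ± 0.10, and 1 was higher, where 25.2% of all genes were lower and 6.74% higher; as deposited all 25 differences were above 0, with a median of 0.27, and 16 were called, as were 62.5% of all genes.

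**Figure D4:**
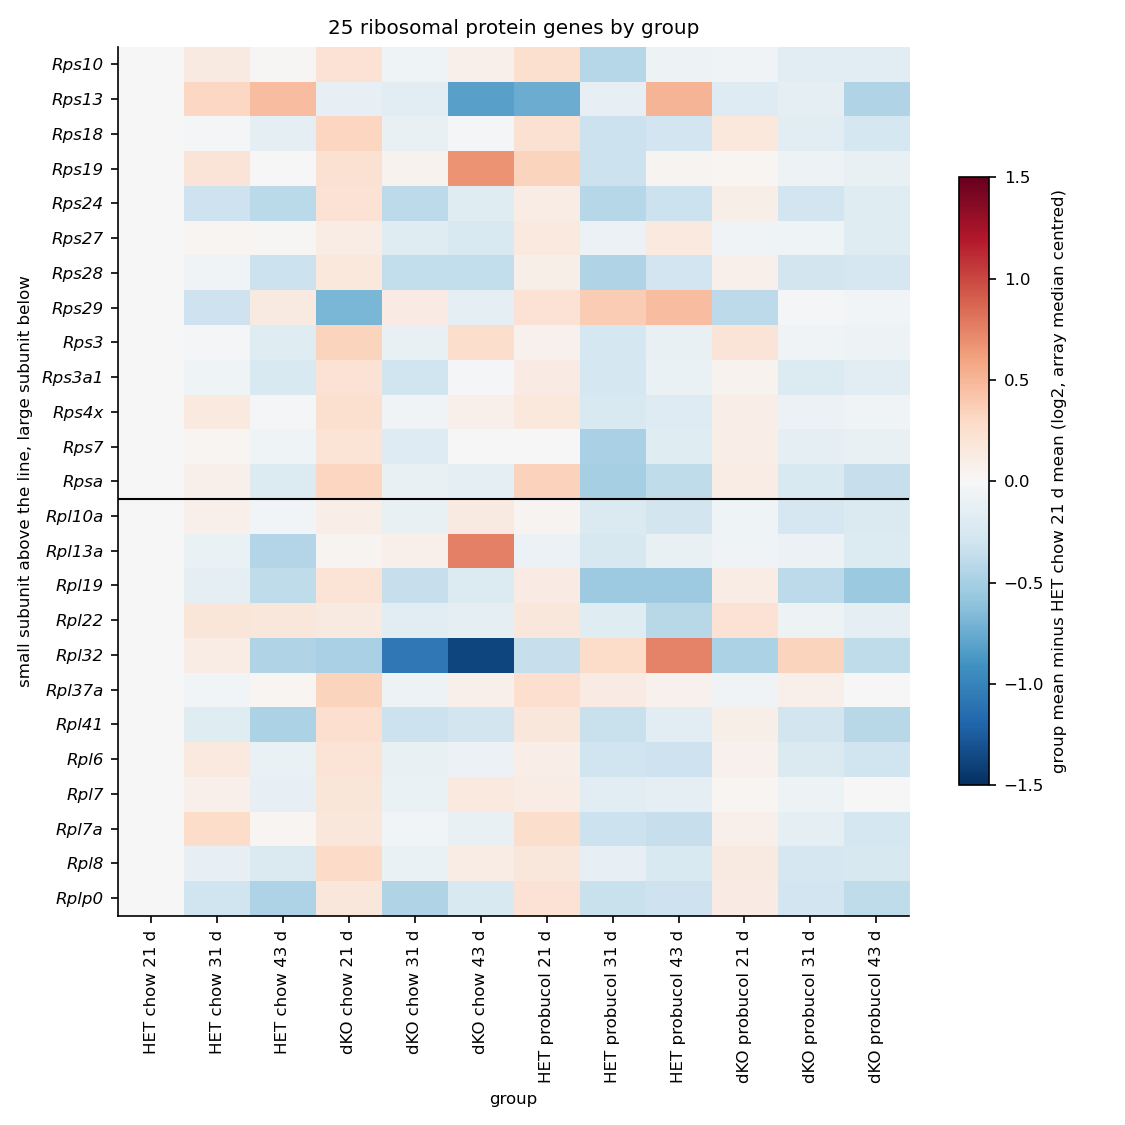
Mean level of the 25 members tested in each of the 12 groups, as the difference from HET chow hearts at 21 days (colour, log2, array median centred); rows are genes, small subunit above the line, and columns are groups. Rpl13a and Rps19 are darkest red in the dKO chow hearts at 43 days, and Rpl32 is darkest blue in the dKO chow hearts at 31 and 43 days.

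Probucol was compared with chow within dKO hearts, and this comparison shares its dKO chow hearts with those above. At 43 days 6 members were lower on probucol in all 4 scalings, where 16.9% of all genes were lower after centring and 16.7% in all 4 scalings. Rpl13a had 0.56, 0.95 and 1.22 as lowest, median and highest values in the 6 probucol hearts, against 1.32, 1.90 and 2.56 on chow. These groups did not overlap, as for 7.76% of all genes in that direction. The difference was -0.97 ± 0.16 (adjusted p = 2.6e-07). Rps19 had 2.85, 3.04 and 3.32 on probucol and overlapped slightly with chow, where the lowest heart had 3.29. It differed by -0.78 ± 0.13 (adjusted p = 9.9e-07). Rpl8, Rpl10a, Rpl19 and Rps3 were lower by differences from -0.35 to -0.34 (adjusted p from 0.0053 to 0.044).

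Rpl32 was the member called higher on probucol at 43 days, by 0.995 ± 0.41 (adjusted p = 0.045), where 21.3% of all genes were higher. Its call was lost as deposited (0.61, adjusted p = 0.25), on the brightest 10% (0.88, adjusted p = 0.094), without the filter (0.99, adjusted p = 0.055) and with the replicate number as a block (0.83, adjusted p = 0.14). The members' median was -0.15 after centring, against 0.08 for all genes. As deposited 20 members were lower, after quantile normalization 19, and on the brightest 10% 16, against 37.4%, 18.2% and 23% of all genes. Relative to the members' own median, Rpl13a (-0.69) and Rps19 (-0.50) were lower, and Rpl32 (1.28), Rps28 (0.40) and Rps24 (0.29) were higher on probucol; on that scale 38.6% of all genes were higher and 9.99% lower.

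**Figure D5:**
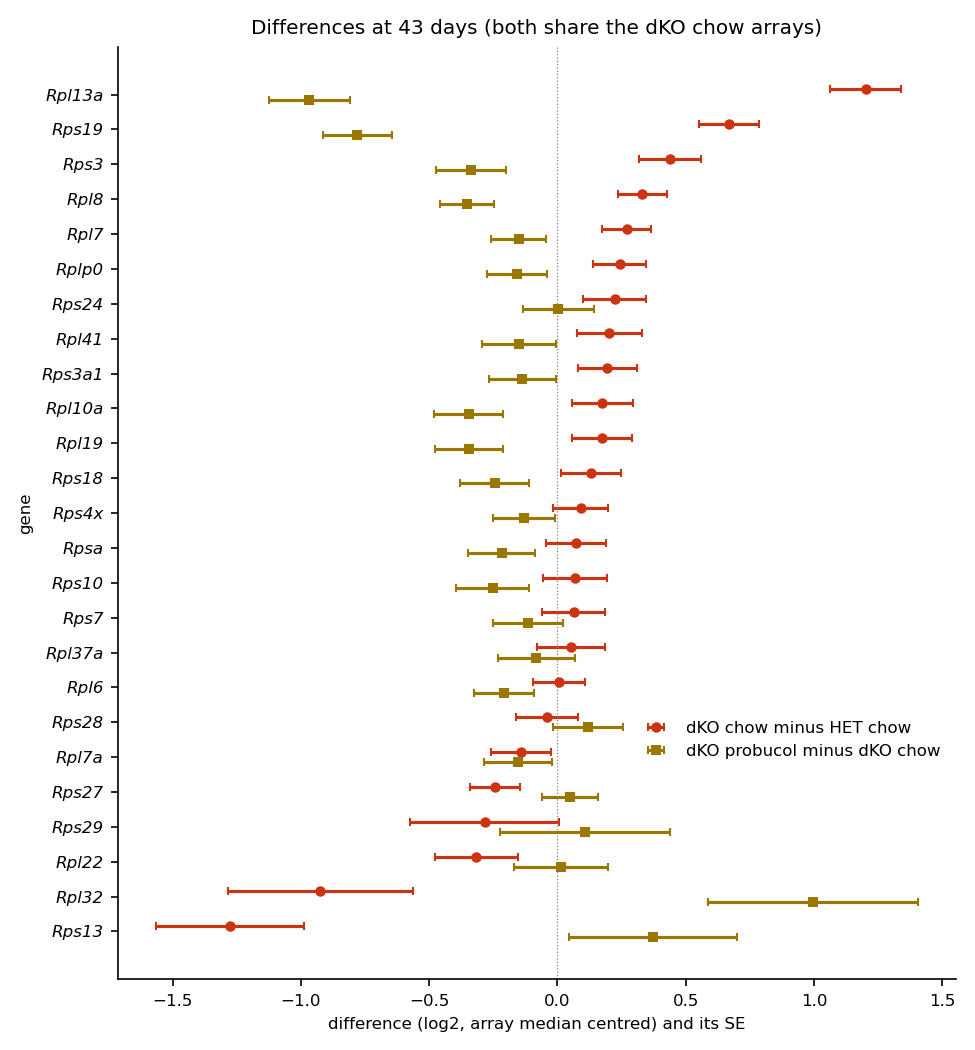
Differences at 43 days (log2, array median centred, horizontal axis) with their SE for the 25 members tested (vertical axis): dKO chow minus HET chow as circles and dKO probucol minus dKO chow as squares. The dKO chow hearts enter both with opposite sign, so the mirrored placing of the points is in part built in; Rpl13a lies at 1.20 and -0.97.

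At 31 days 1 member was called higher on probucol in dKO hearts and 0 lower, where 7.93% and 11.4% of all genes were, and limma gave no further member an unadjusted p under 0.05. Rpl32 ranged from -2.11 to 0.37 on chow with a median of -1.36 and from -0.67 to 0.93 on probucol with a median of 0.55. The groups overlapped. It differed by 1.40 ± 0.39 (adjusted p = 0.0059) and was called in all 4 scalings, in which 1.99% of all genes were higher. As deposited 14 members were lower, as were 26.7% of all genes. At 21 days no member was called after centring, where 0.0704% of all genes were higher and 1.21% lower after centring, and 1 member, lower on probucol, had an unadjusted p under 0.05 in the limma fit. Between dKO hearts on probucol and HET hearts on chow at 43 days, limma called 0 members after centring, where 0.317% of all genes were higher and 0.457% lower, and 2 members, both lower, had an unadjusted p under 0.05.

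Among HET hearts on chow, Rplp0 was lower at 43 than at 21 days in all 4 scalings, as were 0.493% of all genes. It had 6.40, 6.86 and 7.11 as lowest, median and highest values at 21 days, and its values at 43 days, given above, overlapped with these. The difference was -0.47 ± 0.11 (adjusted p = 0.0088). Rpl41, the shortest of the ribosomal proteins and a bright probe set, differed by -0.47 ± 0.14 (adjusted p = 0.039), and by -0.19 as deposited. These were the 2 members lower after centring, where 1.69% of all genes were lower; limma called 0 members higher, where 0.932% of genes were, and 0 higher and 7 lower members had an unadjusted p under 0.05. Probucol in HET hearts, averaged over the 3 ages on 3, 3 and 2 hearts, gave no called member after centring, where 0.405% of all genes were higher and 2.23% lower, and 1 member, lower on probucol, had an unadjusted p under 0.05 in the limma fit.

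Most genes of the mitochondrial ribosome, which is built from other proteins and translates the mitochondrial genome, were lower in dKO hearts on chow at 43 days. Of 59 mitochondrial ribosomal protein genes tested, 0 were higher and 47 lower in dKO hearts after centring, and 30 were lower in all 4 scalings, against 27.9% and 11.6% of all genes. Their median was -0.68. Mrps28 differed by -1.40 ± 0.13, Mrps21 by -1.37 ± 0.13, and Mrps36, a gene now also assigned to the oxoglutarate dehydrogenase complex, by -1.58 ± 0.15. On probucol at 43 days 50 were higher than on chow, 25 of them in all 4 scalings, against 21.3% and 8.2% of all genes.

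Genes of translation outside the ribosome were called in both directions in dKO hearts on chow at 43 days. Over all genes tested, 19.2% were higher and 27.9% lower after centring, and 19.1% and 11.6% in all 4 scalings. The counts of the lists that follow were not tested against these shares. Of 5 elongation factors tested, 1 was higher, in all 4 scalings, and 3 lower, 1 of them in all 4. Eef1a2, the isoform of adult muscle and neurons, differed by -1.43 ± 0.16, Eef1d by -0.63 ± 0.10 and Eef1a1, the isoform of most other cells, by 0.37 ± 0.12. Of 28 initiation factors 5 were higher, all 5 in all 4 scalings, and 9 lower, 1 of them in all 4, with Eif6, which keeps free large subunits apart from small ones, at 0.66 ± 0.12, Eif4a2 at -1.13 ± 0.15 and Eif4g2 at -0.60 ± 0.14.
Of 14 other genes with TOP mRNAs 4 were higher, all 4 of them in all 4 scalings, and 3 lower, 0 in all 4, among them Pabpc1, the poly(A)-binding protein, at 0.82 ± 0.13, Npm1, the nucleolar chaperone, at 0.72 ± 0.15, and Eef1d. Of 35 ribosome biogenesis genes 9 were higher, all 9 in all 4 scalings, and 7 lower, 2 in all 4, with Nop10 at -0.92 ± 0.13. Of 10 genes of TOR signalling and the S6 kinases, 1 was higher, in all 4 scalings, and 2 lower, 0 in all 4: Larp1 at 0.58 ± 0.20, Eif4ebp2 at -0.43 ± 0.09 and Tsc2 at -0.27 ± 0.10. The 2 paralogs left out by the rule that could be tested, Rpl7l1 and Rps4l, differed by -0.45 and 0.08 and were not called.

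The cell makeup of the hearts moved with the same groups. In bulk RNA, fewer cells of a type and less RNA per cell cannot be told apart. Beside the marker counts that follow, 19.2% of all genes were higher and 27.9% lower after centring at 43 days on chow. In all 4 scalings 11.6% of all genes were lower. The marker counts were not tested against these shares. At 43 days all 11 macrophage markers tested were higher in dKO hearts on chow, and the summed signal of the 12 on the array had a median of 2814 (1985 to 4491) in HET, 16300 (11057 to 21733) in dKO chow and 2908 (2589 to 3180) in dKO probucol hearts. Of 10 fibroblast markers 8 were higher and 1 lower, with a median sum of 9597 in HET and 23904 in dKO chow hearts.
All 10 cardiomyocyte markers were lower, 8 in all 4 scalings, with a median sum of 56216 in HET and 42348 in dKO chow hearts. All 3 erythroid markers tested were higher, as were 1 of 7 endothelial markers and 8 of 10 proliferation genes. Of 4 neutrophil markers 2 were higher and 1 lower. Of 3 lymphocyte markers 0 were higher and 2 lower, 1 of them in all 4 scalings. No macrophage, fibroblast or cardiomyocyte marker was at the floor on most arrays of any group at 43 days. The part of these cell types in the differences of Rpl13a, Rps19 and the other members was not tested.

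Arrays also fell into a larger and a smaller set that no label names. The genes of the score that split them were picked by a component of the residuals, without the members. The score itself kept the differences between groups, so the sets can carry genotype and age. The smaller set held 20 arrays, among them, on chow, 6 of 10 dKO hearts at 21 days and none of the 10 at 31 days or the 12 at 43 days. Of the HET chow hearts, 2 of 9, 6 of 10 and 3 of 9 belonged to it at the successive ages. Within the larger set alone, with 12 dKO and 6 HET hearts at 43 days, the same 6 members were called higher and Rps13 was called lower: Rpl13a differed by 1.23, Rps19 by 0.70, Rps3 by 0.55, Rpl8 by 0.36, Rpl7 by 0.32, Rplp0 by 0.31 and Rps13 by -1.47. Rpl32 and Rps27 were not called there. At 31 days, with 10 dKO and 4 HET hearts, no member was called within the larger set. At 21 days no member was called within either set, and the members' median was -0.02 in the larger, with 4 dKO and 7 HET hearts, and 0.44 in the smaller, with 6 and 2. The log2 ratio of the 3′ to the 5′ actin control, a sign of RNA integrity, had a mean at 43 days of 0.11 for HET chow, 0.17 for dKO chow and -0.12 for dKO probucol. The same ratio of the Gapdh control had means of -0.21, 0.05 and -0.03 there, with an SD of 0.41 among the dKO chow hearts. As a covariate, the Gapdh ratio ended 7 calls of the members named by rule, over all comparisons, and the actin ratio 2, and beyond this the part of RNA integrity was not tested.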

How the data were processed

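RNA from 88 whole hearts (Trizol, biotinylated cRNA) was hybridised to 1 Affymetrix array each, with 1 mouse per array. The deposited values are signal intensities per probe set on a linear scale, made by the authors with MAS5 per the submitters' processing notes; its version and scaling target are not given in the sources used here. The number of arrays limits the precision. Groups came from the titles of the samples. Intensities were floored at their 10th percentile (4.22), log2 transformed and centred on each array's median. Probe sets with 1 gene symbol in the platform annotation and a mean in the upper 60% were kept, with the brightest standing for a gene. All 88 arrays entered a model of group means in limma 3.58.1 (R 4.3.3; eBayes with trend, tested on simulated data), and p-values were adjusted by Benjamini-Hochberg over 5684 genes. Of 12488 probe sets, 10855 had 1 symbol and 396 several. Named per comparison are the 3 members with the largest rise and fall called, plus Rplp0 and Rpsa in genotype comparisons and up to 3 genes per list with the smallest p; further members named, and those shown with promoters, were chosen after their values were seen. The members and gene lists were chosen with earlier results of these data known. The alternatives tried were scaling, filter, probe set choice, floor, samples in the fit, replicate block, array weights, control-ratio covariates, array set and omitted arrays. Replicate numbers repeat across groups but do not pair the hearts: at most 3 of 9 same-numbered pairs deviated together with a correlation over 0.1.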

Additional observations from a re-analysis of the deposited data

Results flagged for a closer look

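Of 96 checks of the members named by rule, each in a group of 4 to 10 hearts, 7 found 1 heart apart from its group, where chance alone flags about 1 group in 20. Values are log2 over the array median. Rpl13a was 1.496 in dKO probucol replicate 8 at 31 days, with the next heart at 1.14. Rps13 was 1.66 in dKO chow replicate 2 at 21 days, the heart whose description gives another age, with the next at 0.41. Rps27 was 2.03 in HET chow replicate 2 at 43 days and 1.83 in dKO probucol replicate 4 at 43 days. Rps3 was 5.22 in dKO probucol replicate 7 at 31 days and 5.58 in dKO probucol replicate 4 at 43 days. Rpsa was 3.59 in HET chow replicate 7 at 31 days, an array of the smaller set, with the next at 4.13.

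The genotype difference at 43 days stood apart from that at 21 days by a test of the change itself for 4 members after centring: Rpl13a at 1.16, Rps19 at 0.44, Rps13 at -1.15 and Rps27 at -0.36.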

How the results depend on the processing

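Counts of members called that moved by more than 1.5 times follow, by setting; genotype differences are on chow. The cause of each move was not tested. Where the share of all genes is not given above, a count here does not set the members apart from other genes. As deposited, limma called 6 higher and 0 lower at 31 days, 20 higher and 1 lower at 43 days, 14 lower on probucol in dKO at 31 days, 0 higher and 20 lower on probucol in dKO at 43 days, 18 higher and 0 lower in the change from 21 to 43 days, 5 higher and 1 lower in HET with age, 1 lower on probucol in HET. The sign turned for Rpl7a (0.014), Rplp0 (0.17), Rps28 (0.0021), Rps3 (0.22) at 31 days, Rpl7a (0.21), Rps27 (0.10), Rps28 (0.31) at 43 days, Rpl41 (-0.19) on probucol in dKO at 31 days, Rps28 (-0.27) on probucol in dKO at 43 days, Rpl41 (0.52), Rps27 (0.21), Rps28 (0.36), Rpsa (0.32) in the change from 21 to 43 days. After quantile normalization, limma called 5 higher and 1 lower at 31 days, 18 higher at 43 days, 5 lower on probucol in dKO at 31 days, 19 lower on probucol in dKO at 43 days, 15 higher and 1 lower in the change from 21 to 43 days. The sign turned for Rplp0 (0.23), Rps28 (0.10), Rps3 (0.19) at 31 days, Rps28 (0.32) at 43 days, Rpl41 (-0.23), Rps28 (-0.22) on probucol in dKO at 31 days, Rps28 (-0.32) on probucol in dKO at 43 days, Rpl41 (0.39), Rps28 (0.31) in the change from 21 to 43 days. Centred on the brightest 10%, limma called 2 higher and 0 lower at 31 days, 18 higher and 1 lower at 43 days, 2 higher on probucol in dKO at 31 days, 0 higher and 16 lower on probucol in dKO at 43 days, 10 higher and 0 lower in the change from 21 to 43 days, 4 lower in HET with age, 1 higher on probucol in HET. The sign turned for Rps27 (0.0020) in the change from 21 to 43 days. Without the filter, limma called 1 higher at 31 days, 2 higher on probucol in dKO at 31 days, 1 lower in HET with age. With the upper 40% kept, limma called 1 lower at 43 days, 0 higher on probucol in dKO at 31 days, 0 higher on probucol in dKO at 43 days, 1 lower in the change from 21 to 43 days. With the mean of the probe sets of a gene, limma called 2 higher on probucol in dKO at 31 days. A further alternative kept only probe sets ending in digits and _at, without those that carry a suffix such as _r_at, _f_at or _s_at. With these plain probe sets alone, limma called 1 lower at 31 days, 1 lower at 43 days, 0 higher on probucol in dKO at 31 days, 0 higher on probucol in dKO at 43 days, 1 lower in the change from 21 to 43 days, 1 lower in HET with age. With the compared groups alone in the fit, limma called 1 lower at 31 days, 1 higher and 1 lower in the change from 21 to 43 days, 0 lower in HET with age. With the replicate number as a block, although the numbers do not pair the hearts, limma called 0 higher on probucol in dKO at 43 days, 1 higher in the change from 21 to 43 days. With array weights, limma called 4 higher at 21 days, 13 lower at 31 days, 5 lower at 43 days, 1 lower on probucol in dKO at 21 days, 1 higher and 9 lower in the change from 21 to 43 days, 1 lower in HET with age, 2 lower on probucol in HET. With the Gapdh ratio as a covariate, limma called 1 higher and 1 lower in the change from 21 to 43 days, 1 lower in HET with age. With the actin ratio as a covariate, limma called 1 lower in the change from 21 to 43 days. With a minimum of 1.5-fold, limma called 1 lower at 31 days, 2 higher at 43 days, 2 lower on probucol in dKO at 43 days, 1 higher and 1 lower in the change from 21 to 43 days, 0 lower in HET with age. With the array set as a block, limma called 0 lower at 31 days, 1 lower at 43 days, 0 lower in the change from 21 to 43 days, 4 lower in HET with age. In the larger array set alone, limma called 0 lower at 31 days, 1 lower at 43 days, 0 lower in the change from 21 to 43 days. Without dKO chow replicate 2 at 21 days, whose description gives another age, limma called 1 lower in the change from 21 to 43 days. Centred on the members' median (chosen after seeing the data), limma called 1 higher and 1 lower at 31 days, 3 higher and 7 lower at 43 days, 2 higher on probucol in dKO at 31 days, 3 higher and 2 lower on probucol in dKO at 43 days, 1 higher on probucol in HET. Without 6 arrays at one end of the first residual component (chosen after seeing the data), limma called 1 higher at 21 days, 7 lower at 31 days, 1 lower on probucol in dKO at 21 days, 1 higher and 6 lower in the change from 21 to 43 days, 1 lower in HET with age, 4 lower on probucol in HET. The genotype differences of Rpl13a and Rps19 at 43 days were called under all 20 alternatives run. Leaving out each probucol HET heart in turn gave 0 members called higher and 0 lower each time, as with all 8. The other counts stayed within 1.5 times. Groups of 6 or more hearts were not reduced heart by heart. Dim probe sets limit Rps13, Rpl32 and Rps29, and the scale of the arrays limits any statement on the members as a whole.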

Other observations

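The array also carries 3 control probe sets for 18S ribosomal RNA, which entered no comparison of the ribosomal protein genes. On chow at 43 days the middle probe set differed between dKO and HET hearts by -1.30 ± 0.38 (limma, adjusted p = 0.0027), while the 3′ and 5′ probe sets differed by -0.27 ± 0.31 and -0.61 ± 0.43 and were not called. On probucol the middle probe set differed from chow in dKO hearts at 43 days by 0.90 ± 0.43 (limma, adjusted p = 0.091). The middle and 5′ probe sets lay near the floor in the median heart of both chow groups at 43 days. There the middle set had median levels over the array median of -2.635 in HET and -3.52 in dKO hearts. Array medians were higher in the dKO hearts, so values near the floor sit lower there after centring. The part of this in the differences was not tested.

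Of the members whose genes have a relative in bacteria, 10 were tested, and at 43 days 5 were higher and 1 lower in dKO hearts on chow in all 4 scalings. Of the other 15 members, 1 was higher in all 4 scalings and 0 lower. Of all genes 19.1% were higher and 11.6% lower in all 4 scalings. These lists were drawn up with earlier results known, and the difference between them was not tested.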
